A study of Homo sapiens with 9 samples.

Results

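The genes described here are 529 transcribed human genes that are 50 to 100 kb long. They were taken from the deposited list of 9588 genes behind a ChIP-seq study of H2BK120Ub, the ubiquitin mark on lysine 120 of histone H2B, selected on a length of at least 50 kb and under 100 kb and on a measured BrU-seq density of at least 15 in the first 3 kb. BrU-seq sequences RNA that took up bromouridine during a short pulse, so the density measures newly made RNA near the start of the gene. Over the whole list 3000 genes, or 31.3%, reached a density of 15, and the 529 genes were 17.6% of these 3000. Both the length and the density chose the genes, so neither is a finding about them, and the density is given below as a description.

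The ChIP-seq libraries came from RPE1-hTERT cells, an established line of human retinal pigment epithelium immortalised with telomerase, and every library, controls included, had the genotype labelled iCas9 p53/puro-dKO. Mock cells gave 2 ChIP libraries and 1 input, and cells given 9 J/m2 of UV-C gave 2 at 3 h and 4 at 24 h. The BrU value was computed by the authors from an earlier BrU-seq experiment in unirradiated WT RPE1 cells and is 1 pooled value per gene, with no value per library, no error and unknown depth. ChIP-seq signal was not analysed here, so no value below compares irradiated with mock cells. Of 24 marker names of pigment epithelium, other epithelium and mesenchyme, 8 were in the list, none of them between 50 and 100 kb and transcribed. CRALBP, another name of RLBP1, was counted among the 24. The pigment epithelium factor OTX2 had a density of 217, MITF 13.3, the visual cycle genes RLBP1 and RPE65 1.26 and 0.26, and TTR was listed at 0. The mesenchymal collagen gene COL1A1 had 25.8, while COL1A2 and the keratin gene KRT19 were listed at 0.

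RNA polymerase II moves along a gene from its start site, so a longer gene takes longer to read and presents a longer template on which the polymerase can meet damage. UV-C joins neighbouring pyrimidines, most often a pair of thymines, and such a lesion in the transcribed strand stalls the polymerase and calls in transcription-coupled repair. H2BK120Ub is placed behind the elongating polymerase across the bodies of active genes, and gene length and nascent RNA were used to choose genes for its profiles. Genes of this size range usually hold many exons separated by long introns, and their first intron often takes up a large part of the gene.

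Promoters are shown first, because they lie directly before the 3 kb in which the density was measured. For the protein-coding genes of highest density with a RefSeq promoter entry starting at the listed start site, the 150 bases before the start are given 5′ to 3′ on the strand of the gene, from RefSeq on GRCh38.p14. The windows are chr15:60397987-60398136 (minus strand) for ANXA2, chr14:21269443-21269592 (minus) for HNRNPC, chr3:120450993-120451142 (minus) for FSTL1 and chr5:173888199-173888348 (plus) for CPEB4. Capitals mark matches on either strand to the motifs named further on.
ANXA2: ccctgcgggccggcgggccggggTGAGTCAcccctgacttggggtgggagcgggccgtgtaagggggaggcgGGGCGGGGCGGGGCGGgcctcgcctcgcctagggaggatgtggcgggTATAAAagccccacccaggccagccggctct
HNRNPC: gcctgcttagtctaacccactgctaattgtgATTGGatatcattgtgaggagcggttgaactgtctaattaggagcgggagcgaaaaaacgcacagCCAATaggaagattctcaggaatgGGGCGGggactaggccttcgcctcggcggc
FSTL1: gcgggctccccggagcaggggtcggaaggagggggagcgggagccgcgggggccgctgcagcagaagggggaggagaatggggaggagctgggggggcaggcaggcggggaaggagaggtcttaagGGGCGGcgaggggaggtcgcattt
CPEB4: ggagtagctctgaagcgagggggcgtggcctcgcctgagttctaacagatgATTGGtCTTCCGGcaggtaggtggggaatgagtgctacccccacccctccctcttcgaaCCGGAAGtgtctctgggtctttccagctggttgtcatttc
The ANXA2 window held 3 GC boxes, each sharing its last base with the next, 1 AP-1 site and 1 TATA box close to the start. HNRNPC held 2 CCAAT boxes, one on each strand, and 1 GC box. FSTL1 held 1 GC box in a stretch rich in G. CPEB4 held 2 ETS sites, one on each strand, and 1 CCAAT box. XRCC5 and ASPM, also among the highest, have no entry. For MSN and ZBTB38 the RefSeq promoter lay 79277 bp and 44318 bp upstream of the listed start, so neither was printed.

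The share of genes that reached the cut is given next as a description, since the cut is part of the rule. Of the 1350 listed genes of this length, 529 (39.2%, 95% Wilson interval 36.6 to 41.8) reached a density of 15, against 20.1% of the 2717 genes under 10 kb, 34.7% of the 4423 genes of 10 to 50 kb and 35.5% of the 1098 genes of at least 100 kb. The interval overlapped that of the longest genes (32.7 to 38.4). A further 333 genes of 50 to 100 kb had a density above 0 and below 15, 483 were listed at 0 and 5 had no value. Intervals on shares here and below cover counting error over genes only, and genes are not replicates.

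The class of gene changed these shares. Among protein-coding genes, 498 of 916 (54.4%) of 50 to 100 kb were transcribed, against 30.5%, 48.3% and 55.2% in the classes under 10 kb, of 10 to 50 kb and of at least 100 kb and overlapping intervals for the 2 longer classes (51.1 to 57.6 and 51.3 to 58.9). At a cut of 30 these 2 shares were 45.5% and 45.0%. Among lncRNA genes, whose transcripts are long but encode no protein, 29 of 423 (6.86%) of 50 to 100 kb were transcribed, and the other classes lay between 6.19% and 7.22%. At a density cut of 10 or 30 the share over all listed genes was again highest at 50 to 100 kb, at 41.8% and 32.6%. Within the class the share did not follow length, running from 36.3% at 90 to 100 kb to 43.8% at 80 to 90 kb over 5 steps of 10 kb.

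**Figure D1:**
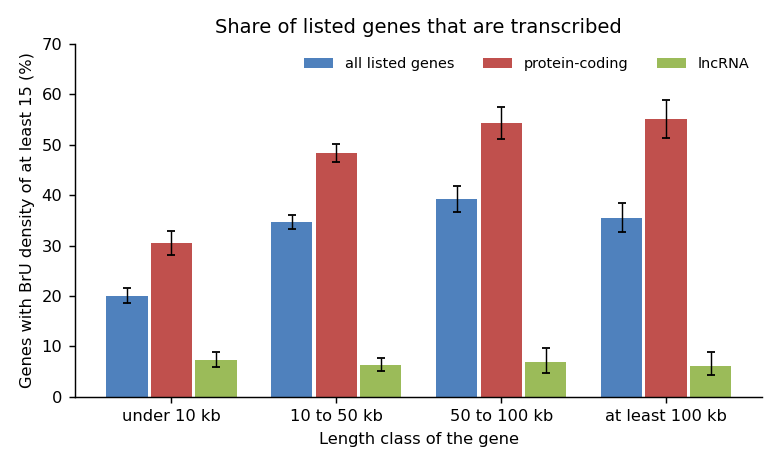
Share of listed genes with a BrU-seq density of at least 15 (y axis, percent) in 4 length classes (x axis), for all listed genes, protein-coding genes and lncRNA genes. Bars start at 0 and error bars are 95% Wilson intervals, and the bars for genes of 50 to 100 kb stand at 39.2%, 54.4% and 6.86%.

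The 529 genes together covered 37.3 Mb, or 24.6% of the 151.5 Mb covered by all transcribed genes, and held 13.5% of the summed density. Their median length was 68201 bp. ARSK, an arylsulfatase gene, and PARP14, a mono-ADP-ribosyltransferase gene, were the shortest at 50002 bp each. CEP70, a centrosomal gene, was the longest at 99917 bp, before SHQ1 at 99169 bp and ESYT2 at 98513 bp. Just outside lay AGO4 at 49875 bp, PPM1A at 49867 bp and GSR at 49781 bp, and on the other side LRP12 at 100023 bp, ABCD3 at 100275 bp and SPG11 at 100967 bp.

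The density of the 529 genes had a median of 67.3 (95% interval of the median by exact binomial order statistics 62.0 to 74.4) and quartiles of 37.1 and 103. The medians of the other transcribed classes were 68.3 under 10 kb, 63.4 at 10 to 50 kb and 53.8 (48.9 to 62.4) at 100 kb and over. The upper tail was shorter than that of short genes: 26.5% of the 529 genes had a density of at least 100, against 35.5% under 10 kb, 28.3% at 10 to 50 kb and 23.1% at 100 kb and over. Only 5 of the 100 highest listed genes and 23 of the 250 highest were of 50 to 100 kb, while 176 of the 1000 highest were. At the low end, 16.8% of the 529 genes (13.9 to 20.2) had a density under 30. The share was 22.2% under 10 kb (18.9 to 25.8), 17.9% at 10 to 50 kb (16.1 to 19.9) and 20.5% at 100 kb and over (16.8 to 24.8). These intervals of the 4 classes overlapped.

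**Figure D2:**
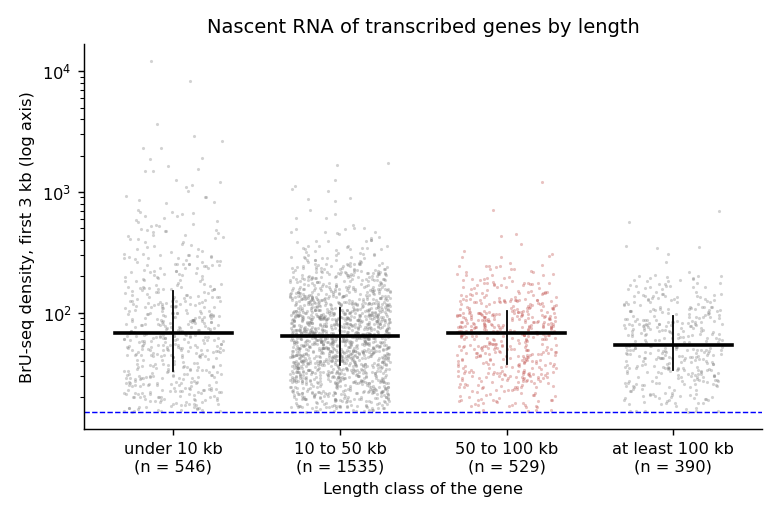
BrU-seq density in the first 3 kb (y axis, log scale) of each transcribed gene, by length class (x axis, with the number of genes). Each point is a gene, thick lines are medians, thin vertical lines span the quartiles and the dashed line is the cut of 15, and the medians lie between 53.8 and 68.3 while the highest points are in the class under 10 kb.

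The cut fell in a continuous range of values. Just inside it were ANKRD36B at 15.04, LINC00632 at 15.30 and the glutamate transporter gene SLC1A1 at 15.47, and just outside it were ENSG00000227885 at 14.82 and ZFAND4 at 14.69.

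The highest density belonged to ANXA2 (ENSG00000182718), which encodes annexin A2, a calcium-dependent membrane-binding protein. It stood at 1219, lay on the minus strand of chr15:60347151-60397986, and at 50836 bp was near the lower length bound. HNRNPC, whose product packages nascent pre-mRNA, followed at 703 (chr14:21209147-21269442, minus strand). XRCC5 encodes Ku80, which holds broken DNA ends for joining, and had a density of 448 (chr2:216109348-216206293, plus strand). FSTL1, a secreted glycoprotein gene, had 430 (chr3:120392293-120450992, minus strand). ANXA2 thus stood well above the second gene, and the genes after it were spaced more closely.

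MSN, which encodes moesin and ties actin to the cell membrane, had a density of 368 on chrX:65667654-65741931, plus strand. CPEB4, a gene for an RNA-binding protein that acts on polyadenylation in the cytoplasm, had 325 on chr5:173888349-173961980, plus strand. ZBTB38, a zinc finger protein that binds methylated DNA, had 296. ASPM, needed at the mitotic spindle poles, had 288. TBCA, a tubulin folding cofactor, had 287. ARHGAP29, a GTPase-activating protein gene, had 259. RYBP, a subunit of a complex that ubiquitinates histone H2A, had 248. The 12 highest, with LINC01638 among them, held 11.6% of the summed density.

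Of the 529 genes 31 were not protein-coding, 29 of them lncRNA genes and 2 transcribed pseudogenes. Their median density was 46.5, against 68.8 for the 498 protein-coding genes. LINC01638 was highest at 304 (chr22:27170470-27224666, minus strand). ENSG00000276077 on the short arm of chromosome 21 had 228, HCG18 in the HLA region 177, ZKSCAN2-DT 146, the pseudogene MFSD14CP 123 and TAPT1-AS1 111. MFSD14CP belongs to a family of near-identical copies, so its reads cannot be assigned to it with certainty. The only annotated transcript of ZKSCAN2-DT holds 3115 bases, far fewer than its listed length of 97413 bp.

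**Figure D3:**
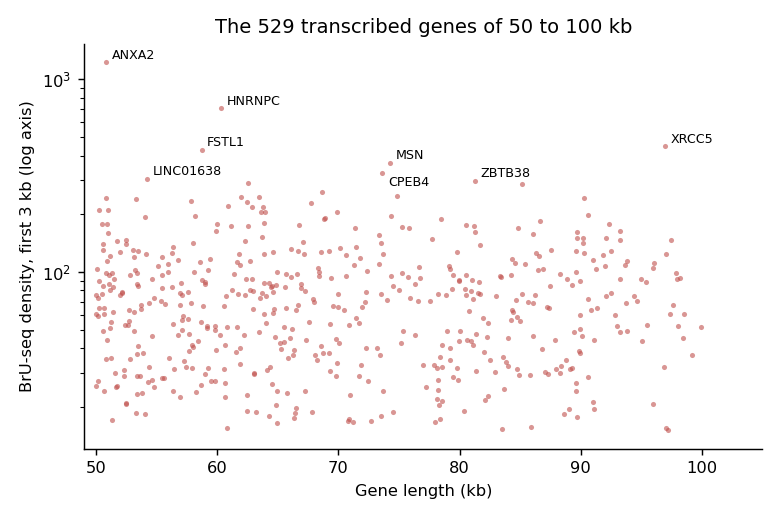
Gene length (x axis, kb) against BrU-seq density in the first 3 kb (y axis, log scale) for the 529 transcribed genes of 50 to 100 kb, with the 8 highest named. High and low points occur at every length, with a Spearman coefficient of -0.02 across genes.

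Density did not follow length within the class. Across the 529 genes the Spearman coefficient of density with length was -0.02, with first intron length -0.04 (528 genes), with distance to the nearest listed gene -0.03, with exon count 0.08, and with the number of annotated transcripts 0.16. The coefficient with GC content of the same 3 kb was -0.20, the furthest from 0 of the 9 computed. These coefficients run across genes of 1 pooled value and share its depth and base composition, and are given as descriptions. In steps of 10 kb, the median density ran from 60.6 at 80 to 90 kb to 75.2 at 90 to 100 kb, and the intervals of all 5 steps overlapped.

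Strand was nearly even. There were 287 genes on the plus strand (54.3%, 50.0 to 58.5) and 242 on the minus strand, with median densities of 69.9 and 65.8. The plus share was 52.0%, 53.6% and 52.8% in the transcribed classes under 10 kb, of 10 to 50 kb and of at least 100 kb, and 50.7% over all listed genes. The intervals of the 4 transcribed classes overlapped.

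The median distance from one of the 529 genes to the nearest other listed gene was 40318 bp (31776 to 45424), with quartiles of 11506 and 105485 bp. It was 34820 bp for transcribed genes under 10 kb, 31088 bp at 10 to 50 kb and 63853 bp at 100 kb and over. The interval of the 529 genes overlapped those of both shorter classes (27541 to 47062 and 27983 to 34869 bp) and not that of the longest (48873 to 78560 bp). Genes of 50 to 100 kb below the cut or without a value had a median of 54418 bp. The study kept genes that were apart from other genes, so distances in this list are longer than in the genome. To any other annotated gene the order was different, with a median of 510 bp (157 to 1917) for the 529 genes, 1125.5 bp under 10 kb, 2077 bp at 10 to 50 kb and 0 bp at 100 kb and over.

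ORC5, a subunit of the origin recognition complex, was the most isolated gene, 908360 bp from SRPK2, and had a density of 138. LINC01776 followed at 790605 bp with a density of 33.4, and TEX10 at 718782 bp with 114. At the other end, 16 of the 529 genes lay under 2 kb from another listed gene and 8 of these overlapped it. The overlapping ones included AHDC1 and APOOL, a mitochondrial cristae gene.

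The nearest listed gene was on the same strand for 50.7% of the 529 genes, lay start to start for 24.2% and end to end for 25.1%. It was itself transcribed in 47.3% of cases (43.0 to 51.5), against 44.1%, 43.97% and 41.3% in the classes under 10 kb, of 10 to 50 kb and of at least 100 kb, with overlapping intervals. For 50 of the 529 genes the nearest listed gene was also one of the 529, and 17 such pairs were nearest to each other. An annotated start on the opposite strand lay within 1 kb upstream of 84 genes (15.9%). Those genes had a median density of 84.0, against 64.9 for the rest.

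Another annotated gene covered part of the first 3 kb of 78 genes, on the same strand in 32 and on the opposite strand in 50. The median density was 76.5 with such a gene and 65.3 without. The methods give HOMER's default settings for this density, which count reads on both strands, so reads of an overlapping gene cannot be told apart from those of the listed gene.

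The genes had many exons and long introns. The canonical transcript, the one GENCODE v44 puts forward for each gene, had the listed start and end for 508 of the 529 genes. Its median exon count was 12, against 3 under 10 kb, 7 at 10 to 50 kb and 16 at 100 kb and over among transcribed genes. Genes of 50 to 100 kb below the cut or without a value had a median of 6 exons, with a median first intron of 12068 bp. Only 418 of those 821 genes were protein-coding, against 498 of the 529. Apart from the TT strand ratio below, comparisons with them were not split by gene class, so differences may reflect the mix of classes. Exons made up a median of 6.82% of the gene, against 35.3%, 13.03% and 3.41% in the other 3 classes, so nearly all of the template was intron.

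Counts of exons ran from 1 to 94. NBPF19 and NBPF14, of a primate family built of tandem repeats, had 94 and 71, and CENPE, the kinetochore kinesin, had 49 at a density of 128. In 95 genes there were at least 20 exons, and in 45 there were 2 to 4. ZKSCAN2-DT had 1 exon in its canonical transcript, but that exon of 3115 bases is far shorter than the listed gene of 97413 bp. SOCS5, a suppressor of cytokine signalling, and MN1, a transcriptional regulator, had 2 exons each, with densities of 179 and 84.2.

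The first intron had a median length of 13119 bp (10824 to 16184), against 1334.5 bp, 4117 bp and 25890.5 bp in the transcribed classes under 10 kb, of 10 to 50 kb and of at least 100 kb. It was at least 10 kb long in 299 of 528 genes (56.6%), was the longest intron in 47.0% and took up over 30% of the gene in 39.4%. RNF152, a lysosomal ubiquitin ligase gene, had a first intron of 76196 bp and a density of 29.2, and SKI, a repressor of TGF-beta signalling, had one of 73242 bp and a density of 57.5. FAM182A was listed with 83521 bp, but its canonical transcript is longer than the listed gene. Genes with a first intron under 10 kb had a median density of 68.6 and those with a longer one 67.04.

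Exons covered a median of 7.47% of the first 3 kb, where the density was measured. In 167 of the 497 genes with an annotated start codon (33.6%) that codon lay beyond the first 3 kb, and in 130 (26.2%) beyond the first 10 kb. The second share was 0%, 9.78% and 31.1% in the classes under 10 kb, of 10 to 50 kb and of at least 100 kb.

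Pairs of thymines, written TT, are the sites at which UV-C most often joins bases, and they were counted on each strand of the gene. On the transcribed strand, which the polymerase reads, the 529 genes had a median of 88.4 TT per kb (87.2 to 89.8). On the coding strand, which has the sequence of the RNA, they had 113.5 per kb (111.8 to 115.8). No lesion was measured, so these are counts of sites and not of damage.

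Taking the coding over the transcribed strand within each gene, the median ratio was 1.31 (1.28 to 1.32), and 501 of the 529 genes (94.7%, 92.5 to 96.3) had more TT on the coding strand. Of the 821 genes of the same length that were below the cut or had no value, 595 (72.5%, 69.3 to 75.4) did, with a median ratio of 1.10 (1.08 to 1.12). Among protein-coding genes alone the shares were 95.8% of 498 and 82.3% of 418, with median ratios of 1.31 and 1.15, so the gap was smaller but remained. Among the 31 non-coding transcribed genes the share was 77.4% (60.2 to 88.6) and the median ratio 1.08. The strand comparison was chosen after the sequence counts had been seen.

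The excess on the coding strand was not particular to this length. Transcribed genes under 10 kb had a median ratio of 1.19 and more TT on the coding strand in 79.7% of genes. Those of 10 to 50 kb had 1.27 and 90.0%, and those of at least 100 kb had 1.29 and 96.4%. Base composition moved with it: the coding strand of the 529 genes held a median of 31.6% T and 28.0% A, and 20.7% G and 19.6% C, while the other genes of this length held 29.9% T and 28.7% A. Within the 529 genes the ratio hardly followed density, with a Spearman coefficient of 0.08.

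**Figure D4:**
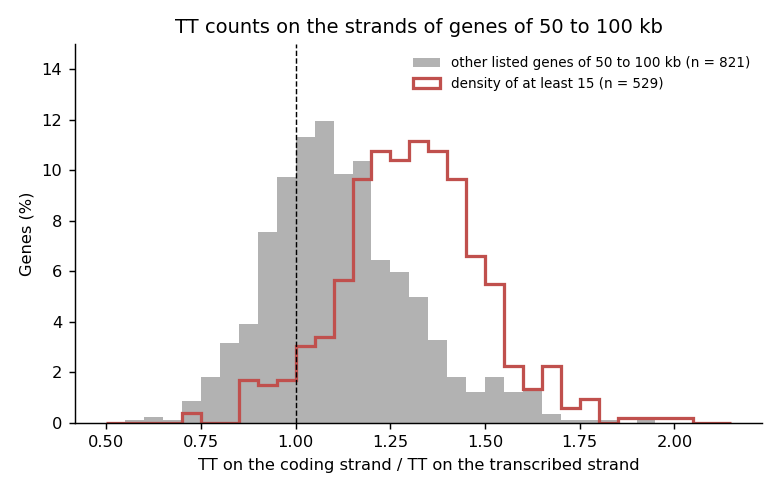
Ratio of TT counts on the coding to the transcribed strand of each gene (x axis) against the share of genes (y axis, percent), for the 529 transcribed genes of 50 to 100 kb (outline) and the 821 other listed genes of that length (filled). The dashed line marks equal counts, and 94.7% of transcribed genes and 72.5% of the others lie to its right.

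NACC2, a BTB domain transcriptional repressor, had the highest ratio at 2.004, with 7005 TT on the coding strand and 3495 on the transcribed strand. SKI followed at 1.97 and IPPK, an inositol phosphate kinase gene, at 1.93. The lowest ratios were 0.71 in ZNF561-AS1, 0.74 in DCAF10, a substrate receptor of a cullin ubiquitin ligase, and 0.86 in SGMS1-AS1, a pair of antisense RNA genes and 1 coding gene. DCAF10 also had the most TT per kb on the transcribed strand, at 122.97, before IL7, the interleukin 7 gene, at 119.0 and TFPI, an inhibitor of blood clotting, at 117.1. BIN1, a membrane-bending protein gene, had the fewest at 32.9, before SKI at 34.2 and the heparan sulfate sulfotransferase gene HS6ST1 at 36.6.

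Counted over the whole gene, the 529 genes offered a median of 5946 TT on the transcribed strand, with quartiles of 4871 and 7311. The medians were 414 under 10 kb, 1913 at 10 to 50 kb and 13362.5 at 100 kb and over, in the order of gene length. Per kb the transcribed strand held 72.7, 82.0 and 90.8 TT in those classes, and 92.4 in the genes of 50 to 100 kb below the cut or without a value. GC content fell with length in the same order, from 48.1% under 10 kb through 42.9% to 40.01% in the 529 genes and 39.2% at 100 kb and over. The first 3 kb of the 529 genes were richer in GC, at 46.9%.

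Promoters of the 529 genes were rich in CpG, the pair of bases that is depleted from most of the genome except at CpG islands. In 300 bases of genome sequence around the listed start, 250 before and 50 after, the ratio of observed to expected CpG had a median of 0.859 (0.844 to 0.878), and it was at least 0.6 in 477 genes (90.2%). That share was 78.2%, 85.8% and 90.5% in the transcribed classes under 10 kb, of 10 to 50 kb and of at least 100 kb, and 31.7% in the 821 genes of the same length below the cut or without a value. Of those 821 genes 418 were protein-coding, and the CpG shares were not split by gene class. RefSeq promoter entries matched 417 of the 529 genes (78.8%). As this is under 80%, the same check on RefSeq sequences is void, and the window at the listed start is used in its place.

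Motif letters were searched on both strands of the same 300 bases, and a match is a description and not a bound site. Motif shares were not split by gene class either. GC boxes (GGGCGG), the letters read by Sp1-type factors, were in 75.2% of the 529 windows, against 32.6% of windows of these 821 genes and 44.6% of all 27305 RefSeq promoters. ETS sites (CCGGAAG) were in 18.7%, against 4.02% and 10.7%. NRF1 sites were in 11.5%, against 1.58% and 6.28%. CRE sites (TGACGTCA) were in 5.29%, against 0.487% and 1.98%, and E-boxes (CACGTG) in 10.2%, against 5.72% and 7.43%.

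Other letters had a lower or a similar share. None of these holds the letters CG, while each motif above does, so the motif shares are not separate from the CpG ratio. TATA boxes (TATAAA) were in 5.10% of the 529 windows, against 14.6% and 11.95%, and AP-1 sites (TGANTCA) in 4.73%, against 10.4% and 7.76%. CCAAT boxes (CCAAT) were in 35.2%, against 35.9% and 35.7%. Against transcribed genes of other lengths the share with a GC box was 72.8% at 10 to 50 kb and 75.9% at 100 kb and over, while ETS sites were in 22.3% and 12.3% of these. In the same 2 classes TATA boxes were in 5.73% and 3.08% and AP-1 sites in 5.34% and 4.10%. NRF1 sites were in 13.4% and 9.23%, CRE sites in 4.10% and 3.85% and E-boxes in 10.2% and 9.74%. Under 10 kb TATA boxes were in 9.52% (7.34 to 12.3, against 3.53 to 7.32 in the 529 windows) and AP-1 sites in 6.59%. There GC boxes were in 63.2%, ETS sites in 22.9%, NRF1 sites in 9.34%, CRE sites in 2.38% and E-boxes in 6.78%. Low TATA box and AP-1 shares were thus shared with the 2 classes of 10 to 50 kb and of at least 100 kb, while TATA boxes were more frequent under 10 kb. The ANXA2 promoter shown above, with its TATA box and AP-1 site, thus held 2 kinds of motif that were each in about 5% of the 529 windows, at 5.10% and 4.73%.

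By function, 130 of the 529 genes fell in at least one of 17 lists written from textbook knowledge. Counts are given beside the 17.6% of all transcribed genes that were of 50 to 100 kb, and no test was run. In the list of excision and transcription-coupled repair, 1 of 9 transcribed genes was of this length. It was POLD3, a subunit of the polymerase that fills repair gaps, at 76.3.

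Among factors of RNA polymerase II elongation and termination, 4 of 19 transcribed genes (21.1%) were of 50 to 100 kb. SCAF4, which restrains early termination, had a density of 172, and RPRD1A, which binds the polymerase tail, had 148. Both lay above the class median of 67.3.

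Writers and erasers of histone marks had 7 of 15 transcribed genes (46.7%) in this length class, a small count without an interval. The 15 had a median length of 58434 bp, against 28272.5 bp over all transcribed genes. Each of the 7 listed genes of this list at 50 to 100 kb was transcribed, against 39.2% of all listed genes of this length and 54.4% of protein-coding ones. This was not particular to the list or the length. At any length 15 of its 17 listed genes were transcribed, as were all 4 elongation and all 5 translation genes of 50 to 100 kb. The 7 are named next. The histone mark genes were SETD5, a SET domain gene, at 175, the H3K9 demethylase KDM3A at 83.6, the acetyltransferase HAT1 at 80.4 and KDM3B, a relative of KDM3A, at 63.5. The others were the H2A ubiquitin ligase RNF2 at 50.0, the H4K20 methyltransferase KMT5B at 43.6 and the lysine methyltransferase SMYD2 at 35.8. Their median of 63.5 was near that of the class. UBE2A and UBE2B, the enzymes that carry ubiquitin to histone H2B, were listed at shorter lengths, 9861 and 20540 bp, with densities of 94.4 and 124. Of 6 chromatin remodelling genes, the BAF complex subunits SS18 at 195 and SMARCB1 at 95.9 were of this length.

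Trafficking and cytoskeletal lists had shares above the 17.6% background, but on small counts and without an interval. Their transcribed genes of any length had median lengths of 44885 bp for motors, 39967.5 bp for vesicle genes and 57374 bp for small GTPases. Over all transcribed genes the median was 28272.5 bp, and whether gene length accounts for these shares was not tested. Of 35 transcribed genes of motors and their partners, 11 (31.4%) were of 50 to 100 kb, with a median density of 123. After MSN came the mitotic kinesins KIF20B at 155, KIF11 at 145 and KIF14 at 128, the dynactin subunit DCTN4 at 129 and RDX, which encodes radixin, at 123. MSN and RDX are counted in this list but do not encode motors. Vesicle coats, tethers and sorting had 16 of 60 (26.7%), led by the sorting nexin SNX19 at 210, the golgin GOLGA3 at 177, SEC23IP at 127, the COG tether subunit COG3 at 118, VAPB at 108 and the membrane fusion regulator STXBP3 at 92.3. Small GTPases and their regulators had 14 of 54 (25.9%) with a median of 46.4. After ARHGAP29 they included the Ras-family gene RRAS2 at 161, the Rab GTPase regulator TBC1D15 at 111, ARHGAP17 at 104, TBC1D23 at 87.3 and the endosomal GTPase gene RAB22A at 68.6.

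Nuclear transport had 5 of 14 (35.7%), and the 14 had a median length of 48947.5 bp, against 28272.5 bp over all transcribed genes. The 5 were the exportin XPO7 at 103 and the importins IPO8 at 86.1 and KPNA5 at 41.5. With them were the pore components NUP205 at 63.2 and POM121C at 66.3, the last from a family of near-identical copies. Solute carriers had 12 of 51 (23.5%) with a median of 43.8, led by SLC38A6 at 168, the cationic amino acid transporter SLC7A1 at 126, the zinc importer SLC39A14 at 119, SLC9A8 at 96.4 and SLC35D1 at 73.3. Ubiquitin ligases, conjugating enzymes and deubiquitinases had 19 of 87 (21.8%). Among these were FBXL5, the iron-sensing F-box protein gene, at 210, and the conjugating enzymes UBE2D2 at 143 and UBE2L3 at 134. UBE2V2, a conjugating enzyme variant, had 126 and the deubiquitinase USP40 103. BTBD10, a BTB domain gene counted in this list, had 98.2.

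Cell cycle, mitosis and replication genes had 11 of 59 (18.6%), close to the background. Besides ORC5 and CENPE these included the condensin subunit NCAPG2 at 124, NBN of the break-sensing MRN complex at 98.8 and the centromere genes CENPF at 96.9 and CENPC at 93.0. Matrix and adhesion genes had 4 of 22 (18.2%), with the matrix glycoprotein EFEMP1 at 232, the integrin activator FERMT2 at 114, and the proteases ADAMTS14 at 37.7 and ADAMTS7 at 28.9. TGF-beta, Wnt, Hippo and Notch genes had 3 of 14, the receptor TGFBR2 at 130, the Hippo regulator NF2 at 91.4 and SKI at 57.5.

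Zinc finger, translation and splicing genes were rarely of this length. Only 4 of 152 transcribed ZNF zinc finger genes (2.63%) were, since 126 lay at 10 to 50 kb, and the 4 were ZNF431 at 191, ZNF654 at 110, ZNF131 at 81.9 and ZNF280C at 50.3. Translation genes had 5 of 73 (6.85%), among them LARP4 at 108, the mitochondrial ribosomal gene MRPL1 at 50.5, the deadenylase gene CNOT6 at 45.3 and the glutamyl-prolyl-tRNA synthetase gene EPRS1 at 32.9. Splicing and RNA processing had 6 of 62 (9.68%), where HNRNPC was followed by PTBP2 at 145, LSM14A at 116, DDX46 at 101, RBM41 at 77.5 and DHX36 at 75.7. LINC genes had 8 of 49 (16.3%), with a median density of 24.6 once LINC01638 is counted in. After it came LINC00467 at 52.9, LINC01776 at 33.4, LINC00960 at 28.6, LINC02832 at 20.5 and LINC02021 at 19.4.

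Families of near-identical copies held 20 of the 529 genes. They were put together after the 529 genes had been read through, so their number says nothing about how common they are at other lengths. The group has 6 NBPF genes, from 127 in NBPF14 to 27.1 in NBPF11, and the pairs ZNG1F and ZNG1E at 141 and 99.6, WASHC2C and WASHC2A at 97.4 and 83.7, GTF2IRD2 and GTF2IRD2B at 96.0 and 34.4 and NOMO2 and NOMO1 at 47.1 and 19.0. A read that maps to several places was kept at 1 of them in the authors' alignment, so these densities are uncertain.

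By chromosome, the share of listed genes of 50 to 100 kb that were transcribed ran from 24.0% of 25 on chromosome 21 to 57.1% of 63 on chromosome 9, and was 0 of 5 on chromosome Y. Chromosome 1 had the most, with 71. Chromosome 19 had 8, which was 4.71% of its 170 transcribed genes. Median densities ran from 36.9 over 8 genes on chromosome 17 to 87.8 over 12 genes on chromosome 22. The 16 genes on chromosome X had a median density of 39.7.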

How the data were processed

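The deposited table holds 9588 genes with start, strand, length and a BrU column, which is a score: the authors' pooled density of nascent reads in the first 3 kb. Per the labels and the study's methods, the authors trimmed reads with Trim Galore 0.6.5, aligned ChIP-seq reads with BWA 0.7.17 and BrU-seq reads with STAR to GRCh38.p14, and counted with HOMER 4.8.2. Genes came from a canonical gene table and were kept by spacing and size. Values within 1e-06 of 0 were taken as 0.

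Gene ends were set from start, strand and length, and genes were matched to GENCODE v44 by identifier. Sequence was read from hg38. Python 3.11.15, numpy 2.4.6, pandas 2.3.3, scipy 1.17.1 and matplotlib 3.10.9 were used, and counting steps were tested on simulated data. No test was run, as the table has no replicates and genes are not replicates. All 9 libraries were grouped from their labels.

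The members and lists were chosen with earlier results of these data known. Named genes were the 12 of highest density, the 6 highest non-coding, the 3 at each edge of density, length, exon count, spacing and TT content (and first intron at the long end), and up to 6 of each list, or all for repair, elongation and histone marks. Genes of extreme TT strand ratio and those in families of near-identical copies were added after values were seen. A few genes that these rules name are not reported here.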

Additional observations from a re-analysis of the deposited data

How the results depend on the processing

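Over 63 alternatives to 13 results, 54 of them planned and 9 chosen after seeing the data, 49 stayed within the interval of the value given, or within 1.5 times it for counts, and the number of genes ranged from 440 to 606. At a cut of 30 the share of listed genes of 50 to 100 kb that were transcribed was 32.6% and the median density 77.7. With the length of the annotated gene the share was 42.7% and the protein-coding share 96.4%, and among protein-coding genes alone the first was 54.4%. The median distance was 510 bp to any annotated gene, 10229 bp to a protein-coding one and 130822 bp to a transcribed listed one. TT per kb was 87.1 over the first 50 kb, was 113.5 on the coding strand and 266.7 for all dipyrimidines on the transcribed strand, the TT strand ratio was 1.32 in the first 50 kb, GC was 46.9% in the first 3 kb, and the promoter CpG ratio on RefSeq entries, a check that was void because too few genes matched, was 0.853 over the whole window and 0.827 before the start alone. Each of these settings altered the count, window or gene set, and the cause of the shifts was not tested. No paired analysis was possible because the table holds no value of a single library. With 1 pooled density per gene, neither replicate error nor depth limits could be given, and annotated length put 74 of the 529 genes at 100 kb or over and 12 under 50 kb.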

Other observations

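Ciliary and centrosomal genes were seen among the 529 only after the genes had been read through, so a list of them made then says nothing about how common they are, and values alone are given. Of 24 such genes the highest were PKD2, the polycystin channel of the primary cilium, at a density of 133 and IFT57 at 112, followed by IFT43 at 91.7, CEP57L1 at 76.1, IFT81 at 75.2 and CILK1 at 66.3. IFT57, IFT43 and IFT81 encode parts of the intraflagellar transport trains. The lowest were TMEM67, of the ciliary transition zone, at 18.8 and TRAF3IP1 at 19.0.

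DNA damage genes outside excision repair were gathered in the same way. After XRCC5 came PARP4 at 123, PML at 119, NBN at 98.8, RIF1 at 78.7 and TOPBP1 at 76.8, while TP53BP1 had 46.2 and BRCA1 41.8. TOPBP1 and BRCA1 signal and repair at broken or stalled DNA, and RIF1 and TP53BP1 protect broken ends from resection.

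FSTL1 holds the miR-198 gene on its own strand, at chr3:120395703-120395724 for the mature RNA. Its RefSeq sequence is shown because the host gene was among the 4 of highest density, with the seed, bases 2 to 8, in capitals.
hsa-miR-198: gGUCCAGAggggagauagguuc
The density of FSTL1 was measured in the first 3 kb, at the far end of the gene from this RNA, and the miRNA itself was not measured. LINC00960, with a density of 28.6, holds MIR4273 on its own strand.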
